A study of Mus musculus with 16 samples.

Results

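The genes described here encode the cytosolic factors that start and extend protein chains on ribosomes. They are the 62 gene symbols, of 43472 in the deposited count files, that begin with Eif or Eef followed by a digit, after 6 pseudogene rows and the sex-linked pair Eif2s3x and Eif2s3y were set aside. That rule uses no expression value, but the set was chosen with earlier results of these data known. The series sets its mutants side by side to ask which changes they share. The RNA came from mouse brain in 4 groups of 4 libraries. The first group carries a deletion of PWS-IC, the imprinting centre that controls the Prader-Willi region, without which the genes expressed there from the paternal chromosome stay silent, and it was compared with its own wild-type group. The other mutant group lacks Prepl, a gene for a serine hydrolase that is mutated in a congenital myasthenic syndrome of people, and it was compared with a separate wild-type group. The labels give genotype and tissue. They state neither strain, age, sex, brain region nor the parent that passed on the PWS-IC deletion, and they do not state that replicates are separate animals, so each p-value measures the spread between these samples.

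Translation begins when eIF2, loaded with GTP and the initiator transfer RNA, joins the small ribosomal subunit together with eIF1, eIF1A, eIF5 and the large scaffold eIF3. The cap-binding complex eIF4F brings in the messenger RNA, the subunit scans to the start codon, and eIF5B then promotes joining of the large subunit. Elongation relies on eEF1A, which delivers aminoacyl-transfer RNAs, on eEF1B, which recharges eEF1A with GTP, and on eEF2, which moves the ribosome along. Brain cells adjust these steps through the eIF2 kinases, whose phosphorylation of eIF2 blocks its exchange factor eIF2B, through the 4E-binding proteins, which hold back the cap-binding subunit under control of mTORC1, and through eEF2 kinase.

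Several of these messages hold coding stretches rich in A, and the libraries were primed on poly(A). The stretches are printed because the share of A is one of the properties by which the factors that differed between groups were described below. Each line gives the 24 coding bases with the most A in the transcript with the longest coding sequence (GENCODE M21, GRCm38), with A in capitals. The first 4 come from factors that were higher in PWS-IC deleted brain, and the last 3 from factors that did not pass the test.
Eif5b (chr1:38021611-38021634, plus strand): AAAAAgAAAAAAgAtAAgAAgAAA
Eif3a (chr19:60781956-60781979, minus strand): AAAttAgcAgAggAAAAAAcAgAA
Eef1b2 (chr1:63177846-63177869, plus strand): AcAtcAAgtcgtAtgAAAAAgAAA
Eef1a1 (chr9:78480627-78480650, minus strand): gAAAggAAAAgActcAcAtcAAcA
Eif2s2 (chr2:154887745-154887768, minus strand): AAAAgAAAAAgAAgAAAAAgAcAA
Eif5 (chr12:111541728-111541751, plus strand): AAAgAAAgAAAAggAAAAgAAAAA
Eef1a2 (chr2:181155379-181155402, minus strand): gcAAggAgAAgAcAcAcAtcAAcA
The stretches held 19 A in Eif5b, Eif2s2 and Eif5, 15 in Eif3a, 13 in Eef1b2 and Eef1a1, and 12 in Eef1a2. Stretches of 19 A were therefore found on both sides of the test, but the lines printed are examples only. The richest coding stretch had a median of 15 A in the 7 factors called in PWS-IC deleted brain and 14 in the 52 not called. Over whole transcripts, leaving out the very end, the medians were 18 and 15.

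Each library held 3477624 to 5852716 reads in genes. Prepl stood at 1.64 ± 0.453 CPM (reads of a gene, scaled to the same total of gene reads in every library; SD, n = 4) in the knockouts and 34.8 ± 1.35 CPM in their wild types, and Ndn, an imprinted gene of the Prader-Willi region, at 4.30 ± 1.90 CPM in PWS-IC deleted brains and 556 ± 11.1 CPM in their wild types. By Xist and Y-linked genes, the Prepl knockouts were 4 males and their wild types 1 male and 3 females, and both PWS-IC groups had 2 of each sex. Reads aligned outside genes made up 17.7% to 20.1% of the PWS-IC deleted libraries and 11.4% to 13.7% of their wild types, with no overlap, against 16.1% to 19.2% in Prepl knockouts and 15.98% to 19.6% in their wild types. Neuronal markers were detected in all groups: 7 of 7 had reads, and their summed level was 2537 to 2658 CPM in PWS-IC deleted brains, 2592 to 2825 CPM in their wild types, 2684 to 2770 CPM in Prepl knockouts and 2817 to 3098 CPM in their wild types. Markers of blood, meninges and choroid plexus moved with the PWS-IC comparison. Of the tested markers, 4 of 5 blood genes, 5 of 5 meningeal genes and 3 of 4 choroid plexus genes were lower in the deleted group by edgeR's quasi-likelihood test, where 1.55% of all genes were. Summed blood markers were at 1203 to 1629 CPM in the deleted group and 1796 to 3970 CPM in its wild types. Meningeal markers were at 291 to 314 CPM in the deleted group and 377 to 630 CPM in its wild types, and choroid plexus markers at 394 to 1696 CPM in the deleted group and 1393 to 2150 CPM in its wild types. Each of these lists had reads for all its genes in both groups, and 0 of 7 neuronal, 0 of 5 astrocyte, 0 of 5 endothelial and 0 of 3 tested oligodendrocyte markers passed. Summed astrocyte markers nevertheless did not overlap, at 528 to 561 CPM in the deleted group and 583 to 612 CPM in its wild types. Of the 5, 1 stood above 0, and 2 were lower at an unadjusted p under 0.05 in edgeR's test, where 18.2% of all genes passed in either direction. Of 5 microglial markers 1 passed: Csf1r, a receptor for growth factors of microglia, was lower in the deleted group at -0.63 ± 0.173 (SE, log2, edgeR adjusted p = 0.0424). Summed microglial markers overlapped, at 37.8 to 60.7 CPM in the deleted group and 46.0 to 71.7 CPM in its wild types. In the Prepl comparison 1 of 5 blood markers passed, where 0.0729% of all genes were lower. Hba-a2 was lower in knockouts at -3.60 ± 0.723 (SE, log2, edgeR adjusted p = 0.0262), with groups that overlapped in CPM. No other tested marker of these lists passed there. The part of these cell types and of the reads outside genes in the results below was not tested. In whole tissue, fewer cells of a type and less RNA per cell cannot be told apart.

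Of the 62 factors, 59 had enough reads to be tested in each comparison. The other 3, Eif4e1b, Eif4ebp3 and Eif2c5, which GENCODE annotates as a noncoding RNA gene, had 0 reads in all 16 libraries. Eif4ebp3 overlaps AC115631.1 on the same strand and shares 504 bases with it at 100% identity. Its reads may thus be counted elsewhere or not at all. Reads in the factors made up 1.13% to 1.17% of gene reads in PWS-IC deleted brains and 1.02% to 1.08% in their wild types, and the ranges did not overlap. In Prepl knockouts the share was 0.949% to 0.977%, inside the 0.897% to 1.01% of their wild types.

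**Figure D1:**
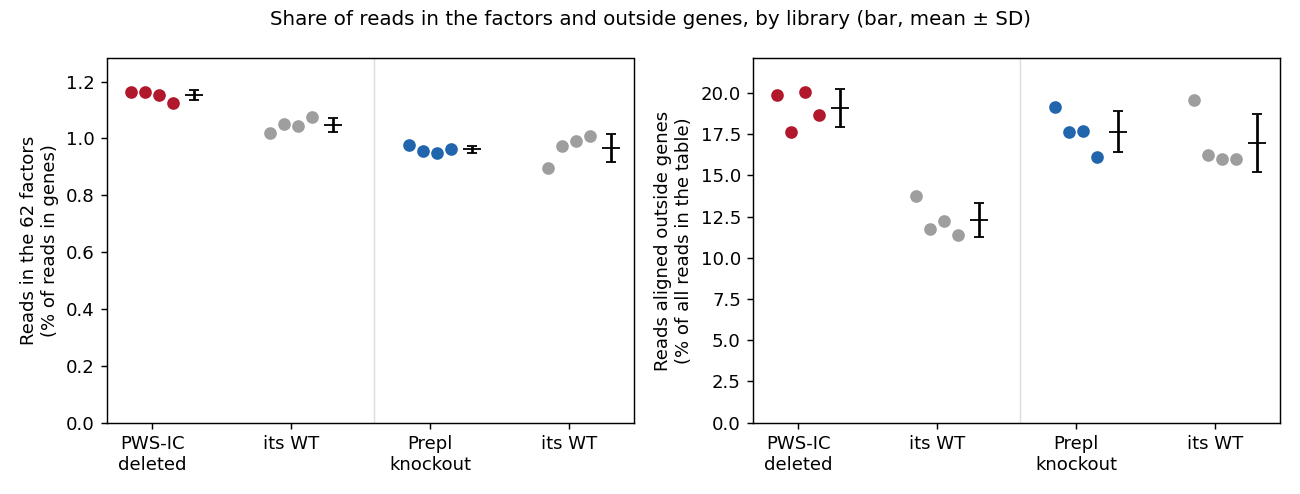
Left, reads in the 62 factors as a percentage of reads in genes; right, reads aligned outside genes as a percentage of all reads in the table; each point is 1 of 16 libraries and the bar gives mean ± SD of 4. The 4 PWS-IC deleted libraries lie above their 4 wild types in both panels, while the Prepl groups overlap in both.

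In PWS-IC deleted brain, 7 of the 59 tested factors were higher than in wild type and none was lower, at an adjusted p under 0.05 in edgeR's quasi-likelihood test (Benjamini-Hochberg over all genes). Across all 13636 genes tested, 4.52% were called, 2.96% higher and 1.55% lower, against 11.9% of the factors. The 7 were the eIF3 subunit genes Eif3a, Eif3d, Eif3e and Eif3j2, the subunit-joining factor Eif5b, and the elongation genes Eef1a1 and Eef1b2. Their increases were between 0.29 and 0.48 on the log2 scale. At an unadjusted p under 0.05, 15 factors were higher and 5 lower, where 18.2% of all genes passed in either direction. The count of lower factors depended on the fit: Eif4ebp2 was called lower with a sex term, with a replicate block, without the low-count filter, without wild-type replicate 1 and without deleted replicate 3, and Eif1a, Eif2s1 and Eif4ebp2 in both fits of 16 libraries. The median factor stood at 0.08 on the log2 scale, against -0.01 for all genes, and 41 of 59 factors were above 0, where 47.6% of all genes were. In CPM, 14 factors did not overlap between the groups with the deleted group higher (6.7% of all genes) and 4 with it lower (5.06% of all genes).

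**Figure D2:**
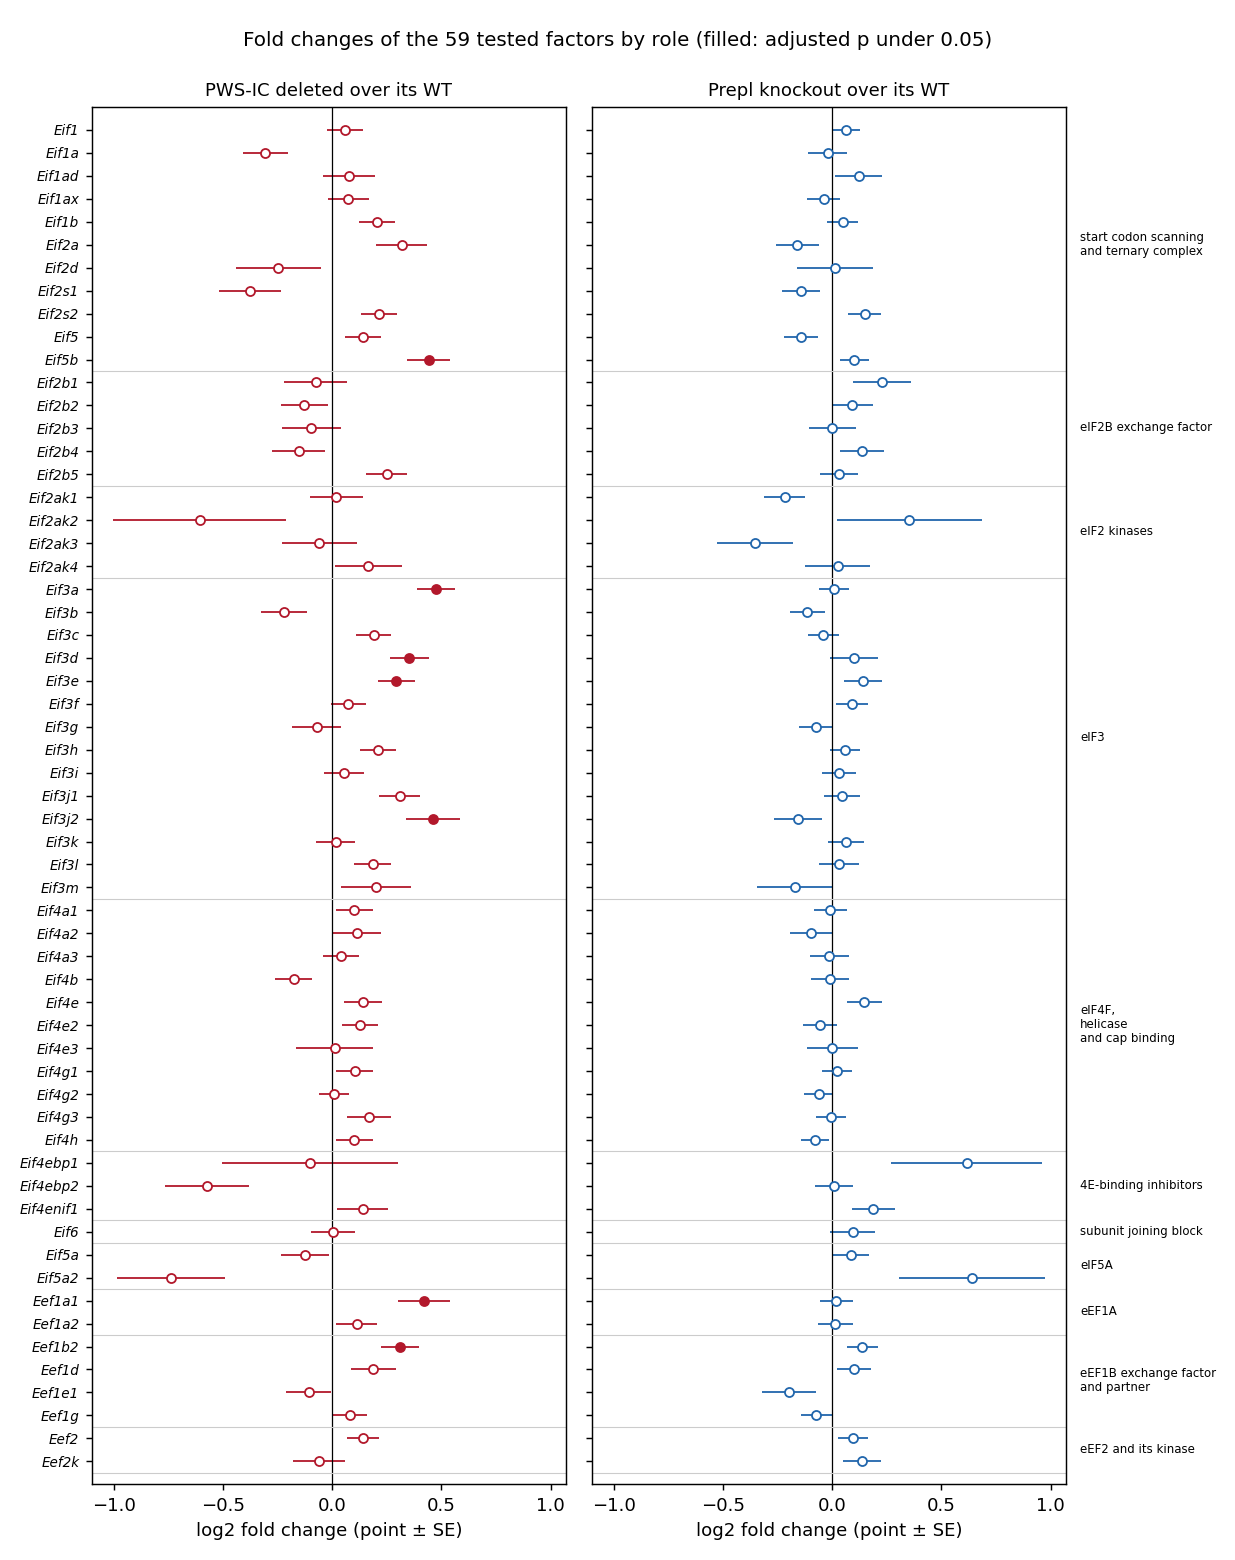
Log2 fold changes of the 59 tested factors (point ± SE from edgeR), grouped by role, for PWS-IC deleted over its wild types at the left and Prepl knockout over its wild types at the right; filled points have an adjusted p under 0.05. The 7 filled points are all in the left panel and all above 0, 4 of them in eIF3.

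eIF3 is the scaffold of the initiation complex, and Eif3a encodes its largest subunit, which holds the complex together and touches the small ribosomal subunit. Eif3a (chr19:60761117-60790658, minus strand) had 587, 486, 564 and 587 CPM in PWS-IC deleted brains, against 364, 373, 431 and 439 CPM in their wild types. All 4 deleted libraries were above all 4 wild types. The increase was 0.48 ± 0.0852 on the log2 scale (SE, edgeR adjusted p = 0.00264, n = 4 per group). In the other model Eif3a had 609, 542, 543 and 497 CPM in Prepl knockouts and 530, 559, 562 and 581 CPM in their wild types. The PWS-IC deleted libraries thus lay in the range of the Prepl libraries or just below it, and the PWS-IC wild types lay below all of them. Whether Eif3a rose in the deleted group or was low in the wild types it was set against cannot be told apart.

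Eif3d encodes the subunit that can itself bind the cap of some messages. Eif3d (chr15:77958998-77970813, minus strand) had 96.7, 99.9, 96.6 and 94.7 CPM in PWS-IC deleted brains, against 78.9, 79.9, 69.3 and 76.7 CPM in their wild types. The deleted libraries lay within 6 CPM of each other and above all wild types, and the increase was 0.35 ± 0.0897 (SE, log2, edgeR adjusted p = 0.0276). Eif3e (chr15:43250058-43282719, minus strand), for another subunit of eIF3, had 235, 230, 246 and 205 CPM in the deleted group and 193, 182, 181 and 193 CPM in its wild types. Its groups did not overlap either, with an increase of 0.29 ± 0.0836 (SE, log2, edgeR adjusted p = 0.0488). Both Prepl groups were lower still for Eif3e, at 129 to 171 CPM in knockouts and 125 to 157 CPM in their wild types.

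The subunit eIF3j, which sits near the decoding centre during initiation and ribosome recycling, is encoded in the mouse by near-identical copies. The annotated transcripts of Eif3j1 on chromosome 2 and Eif3j2 on chromosome 18 share 2379 bases at 99.4% identity, so the authors' counting may have split reads between them. The shared stretch reaches the 3' end of Eif3j2 but not that of Eif3j1, and these libraries read transcript ends. Eif3j2 had 42.1, 42.2, 37.4 and 47.4 CPM in PWS-IC deleted brains, against 32.6, 26.5, 29.3 and 35.2 CPM in their wild types. All deleted libraries were above all wild types, and the increase was 0.46 ± 0.124 (SE, log2, edgeR adjusted p = 0.0361). Eif3j1 had 150, 137, 149 and 154 CPM in the deleted group and 140, 109, 118 and 111 CPM in its wild types. One deleted library lay below the highest wild type, and the difference of 0.31 ± 0.0924 (SE, log2) had an edgeR adjusted p of 0.0621. With the reads of both copies summed, the increase was 0.34 ± 0.0885 (SE, log2, edgeR adjusted p = 0.0307).

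Over the 14 eIF3 genes, 4 were higher and 0 lower, where 2.96% of all genes were higher and 1.55% lower. Of the 14, 12 stood above 0, where 47.6% of all genes did, and the median was 0.20 on the log2 scale. The summed eIF3 level was 2536 to 2652 CPM in PWS-IC deleted brains and 2197 to 2275 CPM in their wild types, against 2189 to 2274 CPM in Prepl knockouts and 2023 to 2359 CPM in their wild types. Eif3c, a core subunit next to eIF3a, had 393, 381, 359 and 372 CPM in the deleted group and 305, 351, 339 and 330 CPM in its wild types. Its groups did not overlap, but the difference of 0.19 ± 0.0797 (SE, log2) had an edgeR adjusted p of 0.200. Eif3b, for another subunit, ran the other way in the samples, with 69.5, 67.0, 69.6 and 70.1 CPM in the deleted group and 76.9, 96.7, 73.3 and 75.6 CPM in its wild types. Its difference of -0.22 ± 0.104 (SE, log2) did not pass (edgeR adjusted p = 0.273). The subunits thus did not all point one way in these samples.

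**Figure D3:**
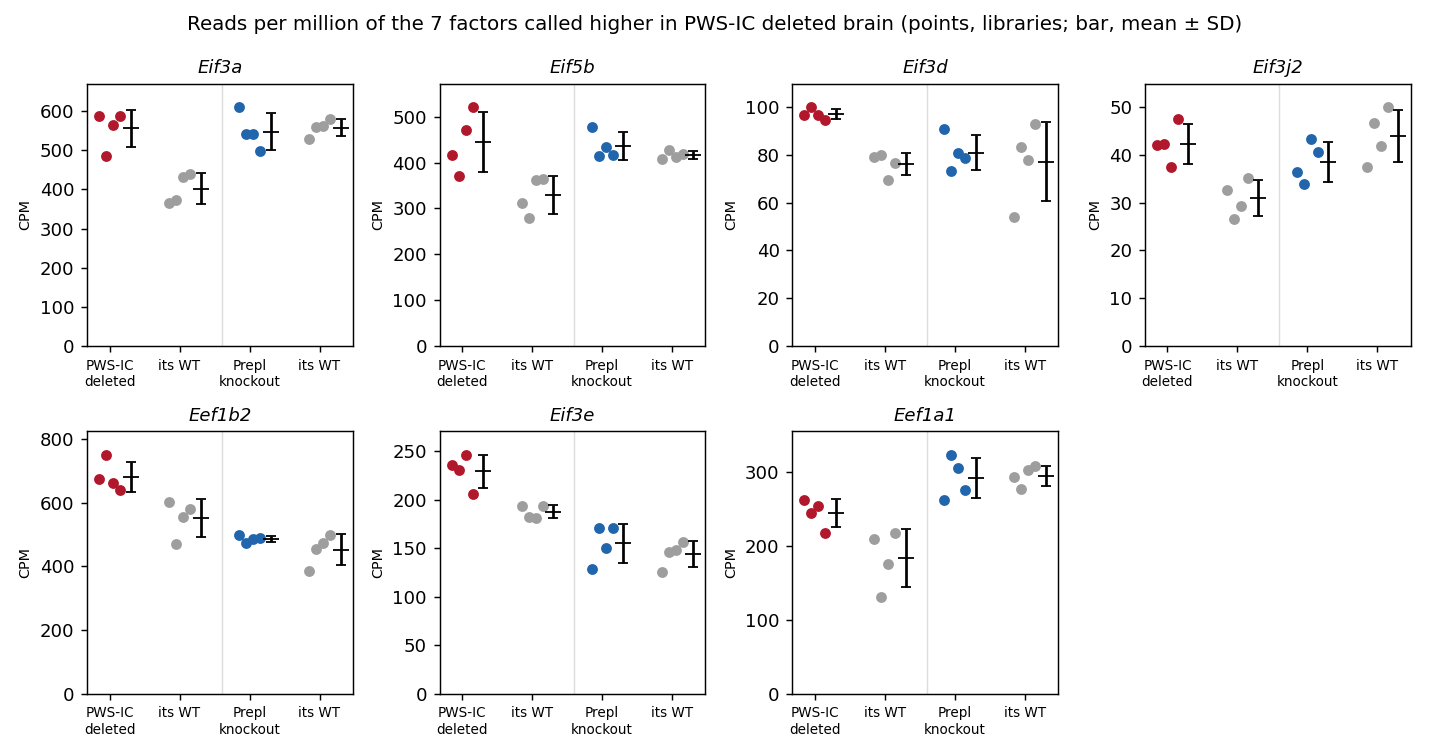
CPM by library for the 7 factors that were higher in PWS-IC deleted brain, with mean ± SD of 4 libraries beside the points, in PWS-IC deleted brains, their wild types, Prepl knockouts and their wild types. For Eif3a, Eif5b and, narrowly, Eef1a1 the PWS-IC wild types lie below every library of the other groups. For Eif3e, in contrast, both PWS-IC groups lie above both Prepl groups.

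Among the factors of start codon selection and the ternary complex, 1 of 11 was called. Eif5b (chr1:37998010-38055579, plus strand), the GTPase that joins the large subunit, had 416, 371, 471 and 520 CPM in PWS-IC deleted brains, against 312, 279, 361 and 364 CPM in their wild types. The groups did not overlap, although the lowest deleted library was close to the highest wild type. The increase was 0.44 ± 0.0998 (SE, log2, edgeR adjusted p = 0.0135). As with Eif3a, the Prepl groups lay at the level of the deleted group, with 414 to 478 CPM in knockouts and 408 to 427 CPM in their wild types.

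The members of eIF2 itself did not move one way. Eif2s1, the alpha subunit that the stress kinases phosphorylate, had 19.5, 21.0, 21.3 and 15.9 CPM in PWS-IC deleted brains, against 23.7, 24.04, 26.0 and 26.7 CPM in their wild types. Every deleted library was below every wild type, and the difference of -0.37 ± 0.143 (SE, log2) had an edgeR adjusted p of 0.154, but of 0.0485 in one fit of 16 libraries and 0.0418 in that fit with a sex term. Eif2s1 did not overlap between the Prepl groups either, at 46.5 to 47.5 CPM in knockouts and 50.3 to 56.2 CPM in their wild types. There the difference was -0.14 ± 0.0879 (SE, log2, edgeR adjusted p = 0.648). Eif2s2, the beta subunit, had 308, 304, 323 and 337 CPM in the deleted group and 271, 253, 269 and 310 CPM in its wild types. That difference was 0.21 ± 0.0813 (SE, log2, edgeR adjusted p = 0.152), with the groups overlapping. Eif2a, an initiator transfer RNA-binding factor unrelated to the alpha subunit, had 43.8 to 52.7 CPM in the deleted group and 34.2 to 41.2 CPM in its wild types, a difference of 0.32 ± 0.117 (SE, log2, edgeR adjusted p = 0.134).

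Eif1a, an autosomal gene for the scanning factor eIF1A, had 45.7, 51.1, 51.2 and 52.6 CPM in PWS-IC deleted brains, against 67.0, 63.6, 63.5 and 55.0 CPM in their wild types. The groups did not overlap, and the difference of -0.31 ± 0.103 (SE, log2) had an edgeR adjusted p of 0.0985, but of 0.0442 in one fit of 16 libraries and 0.0347 in that fit with a sex term. Eif1b, a close relative of the start codon factor eIF1, had 445 to 515 CPM in the deleted group and 372 to 443 CPM in its wild types. It differed by 0.21 ± 0.0817 (SE, log2, edgeR adjusted p = 0.173). Eif5, the GTPase-activating protein for eIF2 and among the most A-rich of the coding stretches above, had 377 to 411 CPM in the deleted group and 326 to 391 CPM in its wild types, a difference of 0.14 ± 0.0830 (SE, log2, edgeR adjusted p = 0.393).

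None of the 5 genes of eIF2B, the exchange factor that reloads eIF2 with GTP, passed the test, and 1 of 5 stood above 0. That gene was Eif2b5, for the catalytic subunit, with 71.2, 74.8, 71.0 and 78.2 CPM in PWS-IC deleted brains, against 58.3, 57.4, 67.2 and 67.0 CPM in their wild types. Its groups did not overlap, and the difference was 0.25 ± 0.0941 (SE, log2, edgeR adjusted p = 0.147). Eif2b2, for the beta subunit, had 48.3 to 63.5 CPM in the deleted group and 62.7 to 68.3 CPM in its wild types. None of the 4 eIF2 kinase genes passed. Eif2ak1, the haem-regulated kinase, had 41.1 to 52.3 CPM in the deleted group and 40.8 to 57.7 CPM in its wild types, and Eif2ak4, the kinase that senses uncharged transfer RNA, had 18.8 to 24.3 CPM in the deleted group and 16.2 to 20.8 CPM in its wild types.

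For eIF4F and its helper proteins, 0 of 11 tested genes were called in PWS-IC deleted brain, although 10 of 11 stood above 0 with a median of 0.10 on the log2 scale. Eif4g2, a relative of the eIF4G scaffold that works without the cap-binding subunit, had 1309 to 1348 CPM in the deleted group and 1290 to 1383 CPM in its wild types. Eif4g1, the eIF4G scaffold itself, had 409 to 481 CPM in the deleted group and 385 to 443 CPM in its wild types. Eif4e, the cap-binding subunit, had 136 to 151 CPM in the deleted group and 118 to 140 CPM in its wild types, a difference of 0.14 ± 0.0852 (SE, log2, edgeR adjusted p = 0.409). All of these groups overlapped.

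The 4E-binding proteins compete with eIF4G for eIF4E, and Eif4ebp2 is the form known to act in mouse brain. Eif4ebp2 (chr10:61428491-61452661, minus strand) had 41.6, 26.9, 55.2 and 30.7 CPM in PWS-IC deleted brains, against 40.3, 75.7, 58.6 and 52.7 CPM in their wild types. Deleted replicates 1 and 3 lay above the lowest wild type, and the difference of -0.57 ± 0.192 (SE, log2) had an edgeR adjusted p of 0.0989. It passed in 5 of 11 other settings, a sex term among them. Eif4enif1, a shuttling protein that carries eIF4E into the nucleus, had 46.1 to 62.1 CPM in the deleted group and 45.2 to 56.0 CPM in its wild types. Eif4ebp1 was near the limit of counting, with 1.20 to 4.60 CPM in the deleted group and 2.05 to 4.35 CPM in its wild types. Eif6, which keeps the ribosomal subunits apart until initiation, had 52.9 to 59.2 CPM in the deleted group and 53.5 to 59.2 CPM in its wild types.

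eIF5A is the hypusine-bearing factor that helps ribosomes through difficult peptide bonds, and Eif5a2 is its less widely expressed form. Eif5a2 (chr3:28781276-28798846, plus strand) had 6.26, 7.07, 5.46 and 4.49 CPM in PWS-IC deleted brains, against 8.54, 11.7, 6.92 and 11.6 CPM in their wild types. Deleted replicate 2 lay above wild-type replicate 3, and the difference of -0.74 ± 0.247 (SE, log2) had an edgeR adjusted p of 0.0984. Eif5a had 88.0 to 113 CPM in the deleted group and 100.3 to 131 CPM in its wild types.

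**Figure D4:**
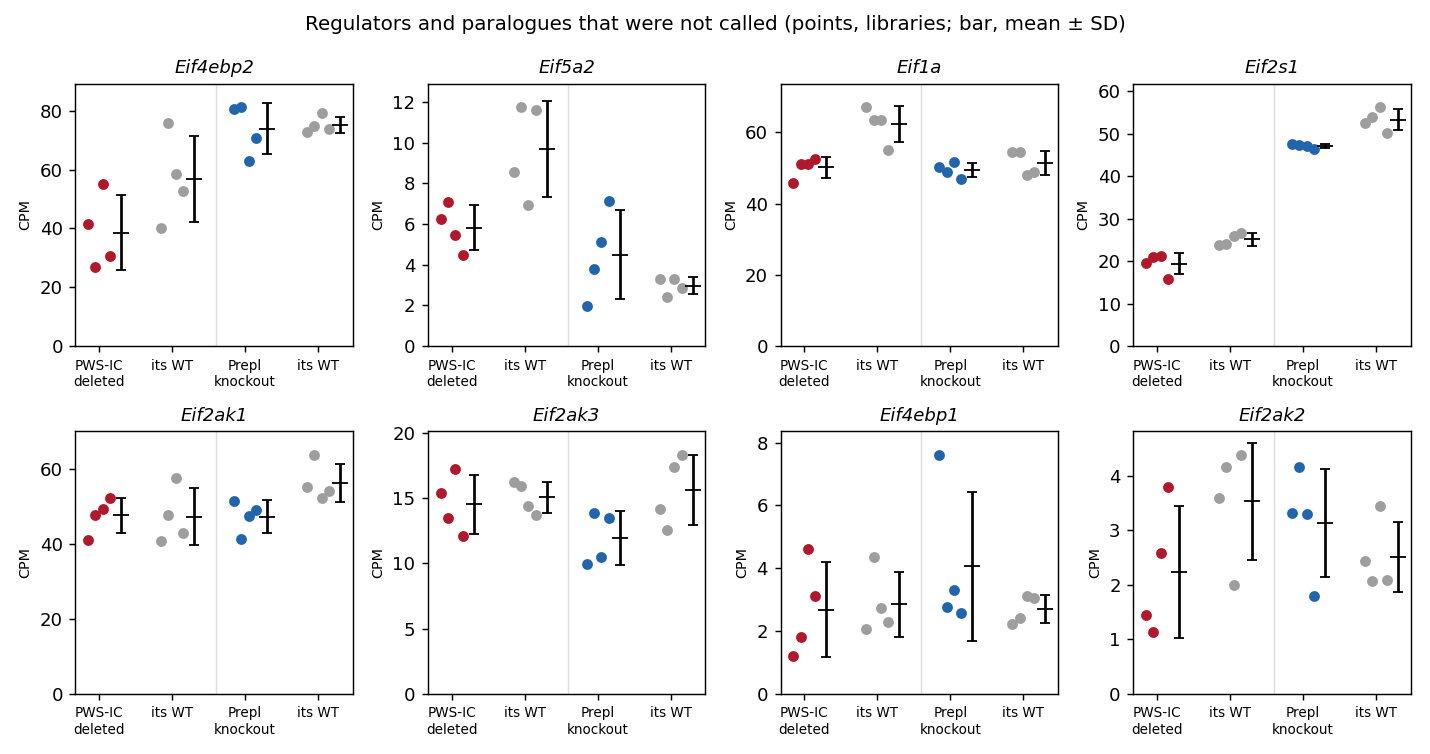
CPM by library for 8 regulators and paralogues that did not pass the test in either mutant, with mean ± SD of 4 libraries, in PWS-IC deleted brains, their wild types, Prepl knockouts and their wild types. Eif1a and Eif2s1 have no overlap between PWS-IC deleted brains and their wild types, and Eif2s1 and Eif2ak1 none between Prepl knockouts and theirs. Eif2s1 is lower in all 8 PWS-IC model libraries than in all 8 Prepl model libraries.

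Of the elongation factors, Eef1a1 and Eef1b2 were called in PWS-IC deleted brain. Eef1a1 (chr9:78478449-78489151, minus strand), the form of eEF1A found in most tissues, had 262, 245, 254 and 218 CPM in the deleted group, against 210, 132, 175 and 218 CPM in its wild types. Deleted replicate 4 and wild-type replicate 4 differed by less than 1 CPM, and the increase of 0.42 ± 0.120 (SE, log2) was at the edge of the threshold, with an edgeR adjusted p of 0.04998. In the Prepl model Eef1a1 had 263 to 323 CPM in knockouts and 277 to 308 CPM in their wild types. Eef1a1 shares stretches of at least 200 bases at 90% identity or more with 18 other annotated genes, and with 17 of them near its 3' end. Part of its reads may thus be counted elsewhere or not at all. Its paralogue Eef1a2, the form that takes over in mature neurons and muscle, had 163, 155, 136 and 137 CPM in the deleted group and 140, 147, 125 and 136 CPM in its wild types. It shares no such stretch, and its difference was 0.11 ± 0.0939 (SE, log2, edgeR adjusted p = 0.574).

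Eef1b2 (chr1:63176825-63180486, plus strand), for the exchange subunit that reloads eEF1A with GTP, had 675, 748, 660 and 638 CPM in PWS-IC deleted brains, against 602, 469, 554 and 581 CPM in their wild types. The groups did not overlap, and the increase was 0.31 ± 0.0870 (SE, log2, edgeR adjusted p = 0.0448). Eef1g, another subunit of the same complex, had 182 to 193 CPM in the deleted group and 170 to 186 CPM in its wild types. Eef2, which translocates the ribosome, had 1540, 1611, 1425 and 1462 CPM in the deleted group and 1282, 1439, 1403 and 1375 CPM in its wild types. Its difference of 0.14 ± 0.0740 (SE, log2, edgeR adjusted p = 0.323) did not pass, and one deleted library fell inside the wild-type range. Eef2k, for the kinase that switches eEF2 off, had 40.9 to 48.3 CPM in the deleted group and 38.8 to 54.8 CPM in its wild types.

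The counting could not always assign reads to 1 gene. Eef1b2 overlaps Ndufs1, Eif5b overlaps Rev1, Eif3d overlaps Gm17638 and Eif3j1 overlaps Spg11, each on the opposite strand, and the strand setting of the counting is not given in the sources used here, so their reads cannot be told apart with certainty. Eif3e shares long stretches with 4 other genes and Eef1b2 with 1, while Eif3a, Eif3d and Eif5b share none. The shared stretches lie near the 3' end in Eif3e but not in Eef1b2. Leaving out libraries in turn, Eif3a passed in 8 of 8 fits and Eif5b in 7 of 8, all but the fit without deleted replicate 4. Eif3d and Eef1a1 passed in 3 of 8, Eif3j2 and Eef1b2 in 2 of 8 and Eif3e in 1 of 8, with the fold change above 0 in every such fit. When the fraction of each library outside genes entered the fit as a term, 0 factors passed, 4 of 13636 genes passed in all, and Eef1a1 stood at -0.02 on the log2 scale and Eif3e at 0.08, whereas Eif3a stood at 0.42, Eif3d at 0.38 and Eif5b at 0.33. That fraction did not overlap between the PWS-IC groups, so it and the genotype cannot be told apart by this fit. Over the 11 settings other than left-out libraries, this term included, Eef1b2 stood between 0.29 and 0.32. The near-identical copies ran apart over these settings and the summed reads. Eif3j2 stood between 0.34 and 0.64 and Eif3j1 between -0.32 and 0.34, so fold changes of the separate copies depend on the fit.

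In Prepl knockout brain, none of the 59 tested factors was called, where 0.262% of 13722 genes were (0.189% higher and 0.0729% lower). At an unadjusted p under 0.05 edgeR gave 0 factors higher and 1 lower, where 9.43% of all genes passed, and DESeq2 and limma voom also called 0 factors. The smallest adjusted p was 0.478. The median factor stood at 0.02 on the log2 scale, against 0.00 for all genes, and 37 of 59 were above 0, where 50.1% of all genes were. That direction turned in other fits: with a sex term the median was -0.01 and 24 of 59 were above 0, in one fit of 16 libraries with a sex term -0.03 and 26 of 59, and without wild-type replicate 1 -0.00 and 29 of 59. Sex and genotype are partly confounded here, since all 4 knockouts were male. In CPM, 5.69% of all genes did not overlap between the groups. Of the factors, 1 factor did not overlap with the knockouts higher (1.6% of all genes) and 4 with the knockouts lower (4.09% of all genes). The median standard error of a factor was 0.0859 on the log2 scale in this comparison and 0.0998 in the PWS-IC comparison, so the fold changes of both models were measured about as closely.

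The factor with the smallest p in the Prepl comparison was Eif2ak1, the haem-regulated eIF2 kinase. It had 51.4, 41.3, 47.5 and 49.0 CPM in Prepl knockouts, against 55.2, 63.7, 52.2 and 54.3 CPM in their wild types. All 4 knockouts were below all 4 wild types, and the difference was -0.22 ± 0.0951 (SE, log2, edgeR adjusted p = 0.478). Eif2ak3, the kinase of the endoplasmic reticulum, had 9.93, 13.9, 10.5 and 13.5 CPM in knockouts and 14.1, 12.6, 17.4 and 18.3 CPM in wild types, with overlap, a difference of -0.35 ± 0.173 (SE, log2, edgeR adjusted p = 0.534). Eif2ak2, the kinase activated by double-stranded RNA, had 1.79 to 4.17 CPM in knockouts and 2.07 to 3.45 CPM in wild types, and Eif2ak4 had 18.7 to 27.2 CPM in knockouts and 18.1 to 26.0 CPM in wild types. The 5 eIF2B genes all stood above 0, with a median of 0.09 on the log2 scale and none called. Among them, Eif2b1 differed by 0.23 ± 0.132 (SE, log2, edgeR adjusted p = 0.606), with 18.9 to 27.0 CPM in knockouts and 19.2 to 21.2 CPM in wild types.

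The other factors with small p in the Prepl comparison also overlapped between groups. Eif2s2 had 266, 231, 247 and 246 CPM in knockouts and 204, 229, 221 and 261 CPM in wild types, a difference of 0.15 ± 0.0748 (SE, log2, edgeR adjusted p = 0.547). Eif5 had 283 to 289 CPM in knockouts and 268 to 361 CPM in wild types, with a wider spread in the wild types, and Eif4e had 107 to 127 CPM in knockouts and 91.9 to 114 CPM in wild types. Eif4enif1 had 45.2 to 55.6 CPM in knockouts and 41.8 to 51.0 CPM in wild types. Eef1b2, called in the other model, had 498, 474, 485 and 489 CPM in knockouts and 387, 453, 473 and 498 CPM in wild types, a difference of 0.14 ± 0.0717 (SE, log2, edgeR adjusted p = 0.559). Wild-type replicate 1 was the lowest library for Eef1b2 and also for Eif3d, at 54.1 CPM.

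Scarcely counted factors gave the widest fold changes in the Prepl comparison. Eif5a2 had 1.95, 3.77, 5.13 and 7.15 CPM in knockouts and 3.31, 2.41, 3.28 and 2.86 CPM in wild types, a difference of 0.64 ± 0.332 (SE, log2, edgeR adjusted p = 0.560). Eif4ebp1 had 7.60, 2.78, 3.30 and 2.58 CPM in knockouts and 2.21, 2.41, 3.10 and 3.05 CPM in wild types, a difference of 0.62 ± 0.346 (SE, log2, edgeR adjusted p = 0.595). Its value rested on knockout replicate 1. Eif4ebp2, in contrast, had 63.1 to 81.2 CPM in knockouts and 72.9 to 79.1 CPM in wild types.

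The 7 factors called in PWS-IC deleted brain stood between -0.16 and 0.14 on the log2 scale in the Prepl comparison. Eef1b2 and Eif3e were at 0.14, Eif5b and Eif3d at 0.10, Eef1a1 at 0.02, Eif3a at 0.01 and Eif3j2 at -0.16, none of them past the test. With a sex term Eif3d stood at -0.17. The difference between the effects, Prepl minus PWS-IC, was called for 1 of 59 factors, where 0.778% of 14392 genes were called (0.486% above 0 and 0.292% below) in the same edgeR contrast over 16 libraries. That factor was Eif3a, at -0.47 ± 0.111 (SE, log2, edgeR adjusted p = 0.0337). Its 16 values, given above, show 4 low libraries, the PWS-IC wild types. Without 1 library the contrast kept its adjusted p under 0.05 in 6 of 16 fits. It was lost without any single one of Prepl wild-type replicates 2 to 4, Prepl knockout replicates 2 to 4, PWS-IC wild-type replicate 1 or PWS-IC deleted replicates 1, 3 and 4, with adjusted p up to 0.115. For Eif3j2 the difference was -0.62 ± 0.166 (SE, log2, edgeR adjusted p = 0.0719), for Eif5a2 1.37 ± 0.421 (SE, log2, edgeR adjusted p = 0.143) and for Eif2a -0.48 ± 0.149 (SE, log2, edgeR adjusted p = 0.145). For the other called factors the difference between models was not shown: Eif5b had an edgeR adjusted p of 0.219, Eef1a1 of 0.252, Eif3d of 0.546, Eef1b2 of 0.595 and Eif3e of 0.687. In that contrast 22 of 59 factors stood above 0, where 50% of all genes did. Over all factors, 26 stood above 0 in both models, 7 below 0 in both and 26 on opposite sides.

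Levels also differed between the libraries of the PWS-IC model and those of the Prepl model, whatever the genotype. All 8 PWS-IC model libraries were above all 8 Prepl model libraries for 7 factors (Eif1, Eif1b, Eif3e, Eif3f, Eif3m, Eif4a3 and Eif4g2) and below them for 3 (Eef1a1, Eif2s1 and Eif4e3). The share of all genes with this pattern was not computed, so these counts do not set the factors apart from other genes. Eif4g2 averaged 1328 ± 21.7 CPM in PWS-IC deleted brains, 1325 ± 42.8 CPM in their wild types, 842 ± 29.9 CPM in Prepl knockouts and 901 ± 61.1 CPM in their wild types (SD, n = 4 each). Eif2s1 averaged 19.4 ± 2.48 CPM in PWS-IC deleted brains and 25.1 ± 1.44 CPM in their wild types, but 47.1 ± 0.480 CPM in Prepl knockouts and 53.3 ± 2.50 CPM in their wild types (SD, n = 4 each). Breeding, age and processing are not given per group, so the model and these conditions cannot be told apart, and these levels are a description without a test. They bear on the contrast between models, since for Eif3a, Eif5b and Eef1a1 the PWS-IC wild types lie below the libraries of the other 3 groups. For Eef1a1 the highest of these wild types, at 217.6 CPM, is close to the lowest deleted library, at 218.1 CPM.

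Genes that work next to these factors were followed in lists of their own. In PWS-IC deleted brain, where 4.52% of all genes were called, 1 of 8 genes in the termination and recycling list was: Denr, which helps remove transfer RNA from the recycling subunit and aids reinitiation, at 227 ± 14.2 CPM in the deleted group and 176 ± 15.3 CPM in its wild types (SD, n = 4 each). Its increase was 0.37 ± 0.0844 (SE, log2, edgeR adjusted p = 0.0132), and its difference between models was -0.49 ± 0.121 (SE, log2, edgeR adjusted p = 0.0425). With 1 called gene of 8, this list is not set apart from the 4.52% of all genes. Of 12 tested targets of the integrated stress response, the programme set off when eIF2 is phosphorylated, 1 was called, too few to set the list apart from that share: Atf4, its central transcription factor, at 217 ± 24.4 CPM in the deleted group and 162 ± 13.6 CPM in its wild types, an increase of 0.43 ± 0.0987 (SE, log2, edgeR adjusted p = 0.0158). The list as a whole had 6 of 12 genes above 0 and a median of 0.05 on the log2 scale. ATF4 protein is set largely by translation of its message, which counts of RNA do not measure.

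No gene passed in PWS-IC deleted brain among 15 genes of mTORC1 signalling to translation, 14 poly(A)- and cap-binding partners and 8 tested hypusine and diphthamide enzymes. Larp1, which binds the messages of ribosomal proteins and elongation factors downstream of mTORC1, came closest, at 0.34 ± 0.105 (SE, log2, edgeR adjusted p = 0.0661), and Paip1, a partner of the poly(A)-binding protein, stood at -0.22 ± 0.0862 (SE, log2, edgeR adjusted p = 0.179). In mTORC1 signalling the smallest p belonged to Rraga at 0.34 and Mknk2 at -0.30 on the log2 scale, and among the modifying enzymes to Dhps, the first enzyme of hypusine synthesis, at -0.28, and Dph5 at 0.31. In Prepl knockout brain no gene of any of these 5 lists passed. The smallest p there belonged to Gspt1 (-0.20) and Denr (-0.12) for termination, Larp1 (-0.10) and Pdcd4 (0.12) for binding partners, Ddit4 (0.17) and Mtor (0.15) for mTORC1, Phgdh (0.57) and Asns (-0.14) for the stress response and Dnajc24 (-0.35) and Dhps (-0.11) for the modifying enzymes, all on the log2 scale.

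The factors called in PWS-IC deleted brain tended to have A-rich transcripts. A made up a median of 32.0% of the bases of the 7 called transcripts (25.5% to 32.8%), against 26.1% (20.3% to 32.6%) for the 52 factors not called. The A-richest were Eif3j2 at 32.8%, Eif5b at 32.3%, Eif3a at 32.2% and Eif3e at 32.0%, whereas Eef1a1 at 27.9%, Eef1b2 at 27.6% and Eif3d at 25.5% were nearer the rest. Uncalled Eif2ak2 had 32.6% and Eif2s2 30.4%. Across the 59 factors, the share of A and the log2 fold change had a Spearman correlation of 0.307 in the PWS-IC comparison and -0.141 in the Prepl comparison. Across all genes with an annotated transcript these correlations were 0.0965 (n = 11948) and -0.0347 (n = 11998), and genes called higher in PWS-IC deleted brain had a median of 26.8% A, genes called lower 23.8% and genes not called 25.2%. Genes are not independent replicates, they share these libraries, and the groups also differ in reads outside genes, so the correlations are descriptions. Whether priming of the libraries at A-rich stretches has a part in them was not tested.

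**Figure D5:**
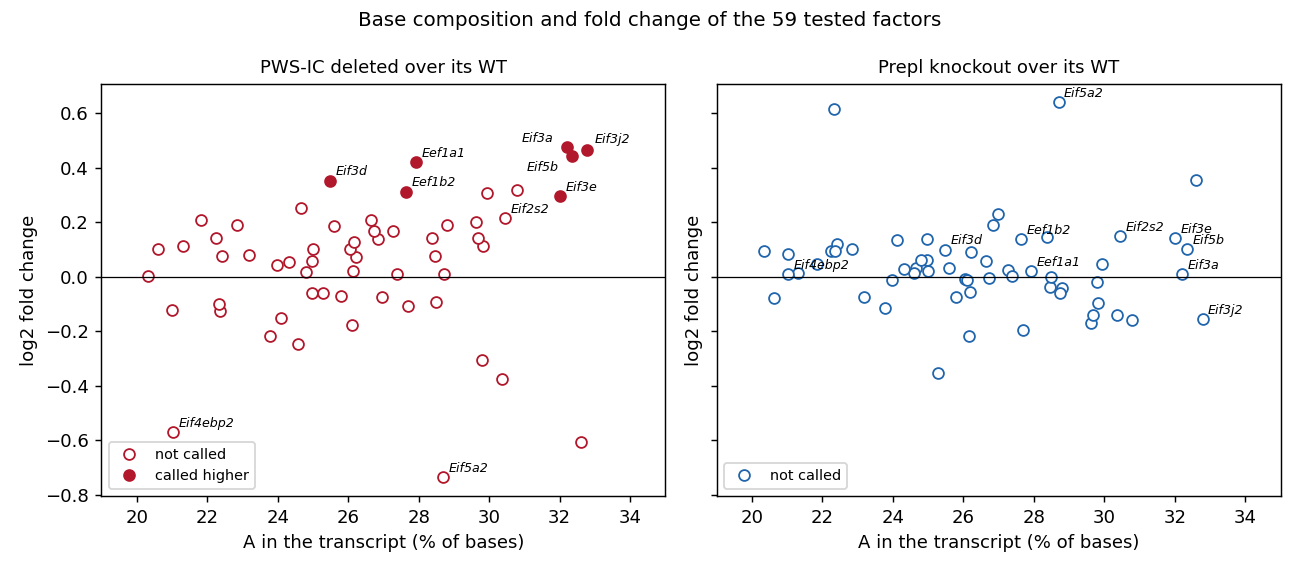
Share of A in the transcript with the longest coding sequence (percent of bases) against the log2 fold change of each of the 59 tested factors, for PWS-IC deleted over its wild types at the left and Prepl knockout over its wild types at the right; filled points passed the test. At the left, 4 of the 7 filled points lie at 32.0% A or more, and at the right the same 4 genes lie between -0.16 and 0.14, none of them called.

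Messages of many translation factors begin with a terminal oligopyrimidine tract, a C followed by pyrimidines, through which mTORC1 and Larp1 set their translation. Around the annotated start, RefSeq (GRCm38.p6) gives 30 bases with 10 of them upstream for 48 of the factors. An unbroken run of C and T of at least 8 bases, read on the gene's strand and lying within 5 bases of the start, was found in 9 of the 48, against 10.1% of all 27025 genes in the table. Shown with the run in capitals are the 4 longest among the tested factors with 1 annotated start, which include the called gene Eef1a1.
Eif3f (chr7:108934405-108934434, plus strand): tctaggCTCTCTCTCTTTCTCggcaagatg
Eif2b5 (chr16:20498807-20498836, plus strand): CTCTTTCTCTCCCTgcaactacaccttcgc
Eif3l (chr15:79075213-79075242, plus strand): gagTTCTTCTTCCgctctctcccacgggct
Eef1a1 (chr9:78481705-78481734, minus strand): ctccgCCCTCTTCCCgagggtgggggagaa
In PWS-IC deleted brain, 1 of the 8 tested factors with such a run was called, Eef1a1, and the median of the 8 was 0.15 on the log2 scale, against 4 of 39 called and a median of 0.08 for factors with shorter runs. A run is a match of letters at an annotated start, need not begin with C, and does not show that a message is regulated through it. Nor does a shorter run show that a message lacks such a tract, since the annotated start need not be the one used. Eif2c5, the noncoding gene without reads, also had such a run.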

How the data were processed

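RNA of 16 mouse brain libraries was made into Lexogen QuantSeq libraries, which capture poly(A) and read transcript ends, per the labels' protocols. The authors deposited whole-number counts per gene symbol for each library. HISAT2, HTSeq and mm10 (GRCm38) are named in the submitters' processing notes; the sources used here give no versions, annotation or strand setting. The 5 totals that name no gene were left out of library sizes and tests. Among them, reads outside genes made up 11.4% to 20.1% of each table. Reads in genes made up 38.1% to 39.4% of the PWS-IC deleted tables and 41.8% to 46.4% of their wild types. In Prepl knockouts this share was 40.95% to 43.1% and in their wild types 41.0% to 44.0%. The rest fell in the other totals. Groups come from the sample titles.

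From the deposited counts, CPM and tests were computed here. Genes were tested with edgeR 4.0.16 under R 4.3.3 (filterByExpr with a minimum count of 10 and total of 15, TMM, quasi-likelihood F-test, Benjamini-Hochberg over all genes, threshold 0.05), each mutant against its own wild types, and the difference of both effects over 16 libraries. SEs are the absolute log2 fold change over the square root of F. The steps were tested on simulated data. Alternatives used DESeq2 1.42.0, limma 3.58.1, other scalings, filters, terms and left-out libraries. Near-identical transcripts were sought with BLAST 2.17.0 in GENCODE M21; promoter sequences are RefSeq's.

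The members, lists and tests were chosen with earlier results of these data known. The text names every called factor, the 10 with the smallest p in each mutant comparison and the 2 of highest mean CPM in each role; in the related lists, called genes or else the 2 with the smallest p. Eif2a, Eif2ak2, Eif2s1 and Eif3b, the factors listed by model and the printed promoters were chosen after their values were seen. Eif3j2, Eif1a and Eif4ebp3 lie on a chromosome for which no sequence is printed here. Counts limit precision: a factor near 3 CPM rests on few reads per library.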

Additional observations from a re-analysis of the deposited data

Results flagged for a closer look

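In groups of 4 libraries, a value is listed where its gap to the nearest of the others exceeds Dixon's critical share of the group's range. Chance alone gives this in about 1 in 20 groups. Only the factors named in the text were screened, each in all 4 groups, so several such values are expected by chance alone. Among Prepl knockouts, Eif2ak4 stood at 27.2 CPM in replicate 2, against 18.7 to 19.9 CPM in the others, and Eif4ebp1 at 7.60 CPM in replicate 1, against 2.58 to 3.30 CPM. Among Prepl wild types, replicate 1 was low for Eif1b at 277 CPM, with the others at 333 to 338 CPM, and high for Eif2b2 at 57.9 CPM, with the others at 47.6 to 49.3 CPM. Replicate 3 of that group had 51.6 CPM of Eef2k, below 53.1 to 53.3 CPM in the others. Among PWS-IC wild types, Eif3b stood at 96.7 CPM in replicate 2 (others 73.3 to 76.9 CPM), Eif2b2 stood at 68.3 CPM in replicate 1 (others 62.7 to 63.2 CPM), Eif5a at 131 CPM in replicate 2 (others 100.3 to 103 CPM) and Eif6 at 59.2 CPM in replicate 4 (others 53.5 to 53.7 CPM). None of these genes passed the test in either mutant.

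For Eif3a the Prepl minus PWS-IC difference of effects, -0.47 on the log2 scale, was called in edgeR's contrast over 16 libraries. Without 1 library it passed in 6 of 16 fits. It did not pass with the fraction of reads outside genes as a term. The low libraries were the PWS-IC wild types.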

How the results depend on the processing

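In the PWS-IC comparison 7 factors were called, and 6 to 9 under RLE or upper-quartile scaling, other low-count filters, DESeq2, limma voom and a sex term; at least 6 of the 7 were among them in each. Of these, 1 was lower than in wild type, Eif4ebp2, with the sex term and without a filter. The count was 11 in one fit of 16 libraries (8 higher, 3 lower), 12 with a sex term in that fit (9 higher, 3 lower) and 0 with the fraction of reads outside genes as a term (the covariate), where Eef1a1 stood at -0.0244 on the log2 scale; leaving out single libraries gave 2 to 7. In the Prepl comparison the count was 0 under every setting run, left-out libraries included. The difference of both effects gave 1 factor, and 3 without the low-count filter, 2 with DESeq2, 2 with a sex term and 0 with the covariate; leaving out single libraries gave 0 to 2. Of 2274 values of named factors under other settings, 2174 kept their side of the threshold and changed sign, if at all, by less than 1 standard error, 49 lost their call, 25 gained one, 25 uncalled values changed sign, and 1 called value reversed, Eef1a1 above. With the reads of Eif3j1 and Eif3j2 summed, a setting chosen after seeing the data, both copies were called at 0.34.

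Over all genes, 36 were called in the Prepl comparison, but 6 with a sex term, 18 in one fit of 16 libraries, 61 with the covariate, 156 without a filter and 12 to 103 without single libraries. In the PWS-IC comparison 616 were called, but 4 with the covariate, 945 without a filter, 1119 with a sex term, 999 and 1233 in fits of 16 libraries and 362 to 653 without single libraries. For the difference 112 were called, but 14 with the covariate, 170 with DESeq2, 222 without a filter, 235 with a sex term and 67 to 134 without single libraries. The cause was not tested.

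The labels do not say that replicate numbers pair the samples. Deviations of same-numbered libraries correlated at 0.0195, 0.312, 0.327 and 0.256 in the PWS-IC groups, short of 0.1 in 1 of 4 pairs, so pairing was not assumed; in both groups numbers 1 and 2 were male and 3 and 4 female. In the Prepl groups they correlated at -0.0972 to 0.0608. With a replicate block, 9 factors were called in the PWS-IC comparison (8 higher, Eif3j1 among them, and Eif4ebp2 lower), 0 in the Prepl comparison and 1 for the difference, and 989 genes in all for PWS-IC. Depth limits the factors under about 10 CPM most: standard errors ran from 0.0691 to 0.403 over the factors in the PWS-IC comparison.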
